A study of Arabidopsis thaliana with 6 samples.

Results

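The gibberellin oxidases described here are 10 Arabidopsis thaliana genes that make or inactivate the hormone. They were taken by locus identifier, with reads of these embryos known: the inactivating oxidases GA2OX1, GA2OX2, GA2OX6 and GA2OX8, and the synthesis oxidases GA3OX1, GA3OX2, GA3OX4, GA20OX1, GA20OX2 and GA20OX3. Among the 23874 genes with values, 7 of the 10 were present, and GA2OX1, GA2OX8 and GA20OX3 are not analysed here. Poly(A) RNA was read from hybrid embryos of the inbred accessions Cvi-0 and Col-0, crossed in both directions, with the parent written first taken as the mother. The 6 groups were Cvi-0 x Col-0 and Col-0 x Cvi-0 embryos at the 1-cell/2-cell stage (about 40 h after pollination), the 8-cell stage (64 h) and a stage of roughly 32 cells, called 32-cell here (78 h). Each group was 1 library from a pool of 20 dissected embryos, so no group had a replicate, and a level in a pool cannot tell fewer expressing cells from less RNA per cell. All embryos were first-generation hybrids with 1 genome from each accession.

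Gibberellins are made from a diterpene precursor by plastid cyclases, then by cytochrome P450 enzymes, and finally by soluble oxidases. GA20OX enzymes carry out the consecutive oxidations before the last step, GA3OX enzymes carry out the last step to the active hormone, and GA2OX enzymes hydroxylate active gibberellins or their precursors into inactive forms. Active gibberellin binds GID1 receptors, which then bring DELLA repressors to the F-box protein SLY1 for degradation. In seeds the hormone is best known for its opposition to abscisic acid during maturation and germination.

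Gene reads totalled between 10299141.5 and 14805499 per library, and 1 read was worth between 0.0601 and 0.0826 RPM (the authors' reads scaled to the mapped reads of the library). Reads assigned to an accession numbered between 1233554 and 1723728 per library. The labelled tissue was the embryo proper, and all 5 embryo markers (LEC1, WOX2, DRN, ATML1 and PDF1) had reads in every library, with sums of 784 to 3664 RPM. Both suspensor markers, WOX8 and WOX9, were also read in every library, with sums of 39.6 to 181 RPM. Seed coat markers summed to 26.0 to 92.3 RPM, and 99.4% of their allele reads were maternal (812 maternal and 5 paternal). Endosperm markers summed to 12.2 to 52.2 RPM, with between 2 and 5 of the 10 at 0 in each library. Intervals below are exact 95% intervals, and like the floor of 3 reads per library set under any count of 0 they cover counting error only. Amplified reads are not independent molecules.

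The 7 genes together held 1879 reads in the 6 libraries, and GA2OX2 held 87.0% of them. Only GA2OX2, GA3OX2 and GA20OX2 had 50 or more reads in all, and the other 4 had fewer. The same 3 genes passed the filter on low reads for the comparison of stages, and a gene absent at 1 stage passes such a filter only through the stage where it is read. No 30-base stretch of the transcripts of the 10 genes occurs elsewhere in the nuclear genome of TAIR10.1, the RefSeq build used for positions and sequence. Coding sequences were most alike for GA20OX1 and GA20OX2, at 79.4% of aligned bases, and for GA3OX1 and GA3OX2, at 76.6%.

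GA2OX2 (AT1G30040), an oxidase that inactivates active gibberellins, was not detected at the 1-cell/2-cell stage and had the highest level per kilobase of transcript among the 7 genes in both 32-cell libraries. It lies on chromosome 1 at 10537457 to 10540044 of TAIR10.1, on the plus strand, in 2 exons. At the 1-cell/2-cell stage it had 0 reads in Cvi-0 x Col-0 embryos and 0 reads in Col-0 x Cvi-0 embryos, which allows up to 0.233 and 0.236 RPM. At the 8-cell stage it had 5.67 RPM (84 reads) in Cvi-0 x Col-0 embryos and 2.31 RPM (28 reads) in Col-0 x Cvi-0 embryos. At the 32-cell stage it had 28.9 RPM (481.5 reads) in Cvi-0 x Col-0 embryos and 64.0 RPM (1041.5 reads) in Col-0 x Cvi-0 embryos. The 3 stages did not overlap: both 32-cell libraries lay above both 8-cell libraries, and those above the pair without reads. Stage means were 0, 3.99 ± 2.37 and 46.5 ± 24.8 RPM (SD over the reciprocal crosses, n = 2), so the spread between crosses was large at both later stages.

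**Figure D1:**
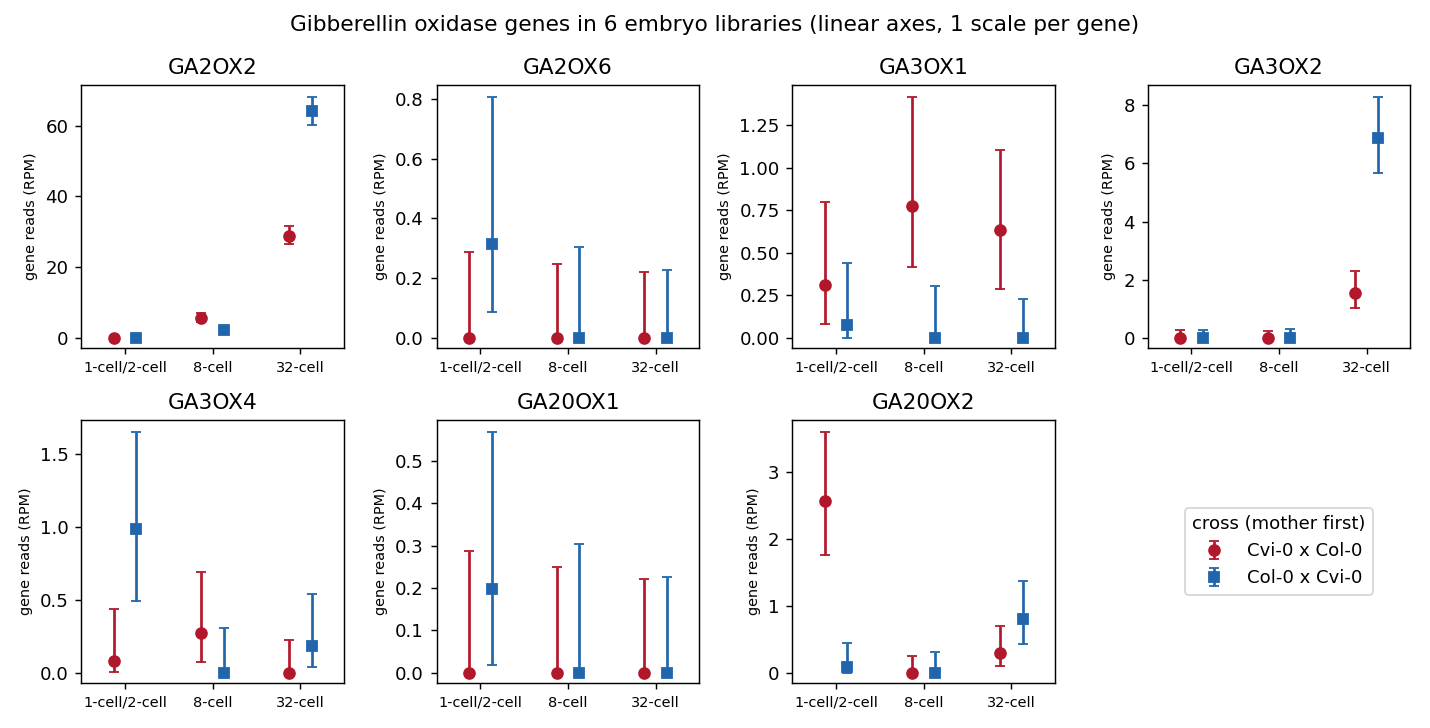
Gene reads in RPM (y axis, linear, 1 scale per gene) by stage (x axis) for the 7 oxidase genes with values. Circles are Cvi-0 x Col-0 libraries, squares are Col-0 x Cvi-0 libraries, and bars are exact 95% Poisson intervals of the reads. GA2OX2 climbs to 28.9 and 64.0 RPM at the 32-cell stage and GA3OX2 has reads at that stage alone, while the other 5 genes stay below 3 RPM in every library.

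Against the floor, GA2OX2 was at least 24.3-fold higher at the 8-cell than at the 1-cell/2-cell stage in Cvi-0 x Col-0 embryos and at least 9.80-fold higher in Col-0 x Cvi-0 embryos. For the 32-cell over the 1-cell/2-cell stage the bounds were 124-fold in Cvi-0 x Col-0 embryos and 271-fold in Col-0 x Cvi-0 embryos. The 32-cell level was 11.1 times the 8-cell level over both crosses (interval 9.18 to 13.6). Within Cvi-0 x Col-0 embryos that ratio was 5.10 (4.04 to 6.52), and within Col-0 x Cvi-0 embryos it was 27.7 (19.1 to 41.9). The 32-cell level was thus the higher in both directions of the cross, with ratios whose counting intervals were apart. The direction of the difference between crosses also changed with stage. At the 8-cell stage the Cvi-0 x Col-0 library held 2.45 times the level of the Col-0 x Cvi-0 library (1.58 to 3.90), and at the 32-cell stage 0.452 times (0.405 to 0.504). With 1 library per group, neither a cross difference at 1 stage nor its change between stages could be tested.

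The fit over all genes (edgeR's quasi-likelihood test with stage and cross as terms, the reciprocal crosses serving as repeats of a stage) is given for these genes as a description, since they were chosen with the same reads known. Of the 3 oxidase genes that passed its filter, 1 (GA2OX2) was past an adjusted p of 0.05 as higher at the 8-cell than at the 1-cell/2-cell stage, where 0.864% of the 17478 genes fitted were, and nothing is read from that count. For the 32-cell over the 8-cell stage 0 of the 3 were past it, as was 0.0% of all genes. Of these 3 genes 2 had an unadjusted p under 0.05 there (11.8% of all genes had) and DESeq2 called 1 (3.68% of all genes), GA2OX2, which had a fitted edgeR log2 ratio of 3.50 ± 0.66 (standard error). Without the Col-0 x Cvi-0 pool of the 8-cell or the 32-cell stage that log2 ratio was 2.35 or 2.36, and without the Cvi-0 x Col-0 pool of the 8-cell or the 32-cell stage it was 4.75 or 4.72. Between the 32-cell and the 1-cell/2-cell stage 1 of the 3, again GA2OX2, was past it as higher, against 4.18% of all genes. For the direction of the cross 0 of the 3 were past it, against 0.00572% of all genes in either direction, with 0 at an unadjusted p under 0.05 (5.68% of all genes) and 0 in DESeq2 (0.280%).

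The 250 bases before the annotated start of GA2OX2 are shown because this gene carries most of the oxidase reads. In this and the other windows capitals mark matches, on either strand, to the letters CATGCA (RY core, the element bound by the seed regulators LEC2 and FUS3), TGTCTC (auxin response element) or TAACAAA (gibberellin response element).
GA2OX2 promoter, chr1:10537207-10537456, plus strand: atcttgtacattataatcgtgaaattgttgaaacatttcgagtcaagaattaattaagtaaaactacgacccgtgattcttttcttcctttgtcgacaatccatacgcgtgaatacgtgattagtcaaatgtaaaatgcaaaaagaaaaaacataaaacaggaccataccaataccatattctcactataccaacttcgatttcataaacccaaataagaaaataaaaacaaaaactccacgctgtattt
None of the 3 sets of letters occurs in this window, which says nothing of any factor. Among 27443 promoter windows of that length, 8.43% hold CATGCA, 10.9% hold TGTCTC and 16.1% hold TAACAAA.

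GA2OX6 (AT1G02400), the other inactivating oxidase with reads, is a gene that the embryo MADS-domain factor AGL15 is known to activate. It had 0 reads at the 1-cell/2-cell stage in Cvi-0 x Col-0 embryos and 4 reads (0.315 RPM) in Col-0 x Cvi-0 embryos of that stage. All 4 libraries of the later stages had 0 reads. A single library therefore held every read, near the floor of 3 reads.

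The last step of synthesis was represented mainly by GA3OX2 (AT1G80340), one of the GA3OX enzymes known from germinating seeds, which had reads at the 32-cell stage alone. It lies on the minus strand of chromosome 1 at 30200466 to 30202349, in 2 exons. The libraries of the 1-cell/2-cell and 8-cell stages had 0 reads in both crosses. Its 32-cell reads came to 1.56 RPM (26 reads) in Cvi-0 x Col-0 embryos and 6.88 RPM (112 reads) in Col-0 x Cvi-0 embryos. Both 32-cell libraries were above the floor of all 4 earlier ones, and the Cvi-0 x Col-0 library held 0.227 times the level of the Col-0 x Cvi-0 library (interval 0.142 to 0.350). The 32-cell level was at least 7.72-fold higher than the 8-cell level in Cvi-0 x Col-0 embryos and at least 27.8-fold higher in Col-0 x Cvi-0 embryos. Against the 1-cell/2-cell level the bounds were 6.70-fold in Cvi-0 x Col-0 embryos and 29.2-fold in Col-0 x Cvi-0 embryos. In both GA2OX2 and GA3OX2 the Col-0 x Cvi-0 pool of the 32-cell stage was the highest of the 6.

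GA3OX1 (AT1G15550), which makes active gibberellin in many growing tissues, was read at low level and mostly in Cvi-0 x Col-0 embryos. In Cvi-0 x Col-0 embryos it had 0.311 RPM (4 reads), 0.776 RPM (11.5 reads) and 0.631 RPM (10.5 reads) in stage order. In Col-0 x Cvi-0 embryos it had 0.0789 RPM (1 read) at the 1-cell/2-cell stage and 0 reads at both later stages. The Cvi-0 x Col-0 library was the higher of the pair at each stage, by counts too small for more than that order.

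GA3OX4 (AT1G80330), a GA3OX gene that lies 928 bases from GA3OX2 on the same strand, differed from its neighbour. At the 1-cell/2-cell stage it had 0.0777 RPM (1 read) in Cvi-0 x Col-0 embryos and 0.983 RPM (12.5 reads) in Col-0 x Cvi-0 embryos. At the 8-cell stage it had 0.270 RPM (4 reads) in Cvi-0 x Col-0 embryos and 0 reads in Col-0 x Cvi-0 embryos. By the 32-cell stage it had 0 reads in Cvi-0 x Col-0 embryos and 0.184 RPM (3 reads) in Col-0 x Cvi-0 embryos. Over both crosses the 32-cell level was 0.173 times the 1-cell/2-cell level (interval 0.0307 to 0.597), and that ratio rests on the Col-0 x Cvi-0 pool of the 1-cell/2-cell stage. Its gene model overlaps AT1G80325 on the same strand, so its reads are uncertain.

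GA20OX2 (AT5G51810), one of the main GA20OX genes of flowers and siliques, was read at the first and the last stage and not between them. At the 1-cell/2-cell stage it had 2.56 RPM (33 reads) in Cvi-0 x Col-0 embryos and 0.0787 RPM (1 read) in Col-0 x Cvi-0 embryos. Both 8-cell libraries had 0 reads. Its 32-cell reads came to 0.300 RPM (5 reads) in Cvi-0 x Col-0 embryos and 0.799 RPM (13 reads) in Col-0 x Cvi-0 embryos. The 8-cell level was at least 12.7-fold lower than the 1-cell/2-cell level in Cvi-0 x Col-0 embryos, and in Col-0 x Cvi-0 embryos both levels were under the floor. The 32-cell level was 0.117 times the 1-cell/2-cell level in Cvi-0 x Col-0 embryos (interval 0.0357 to 0.302) and 10.2 times in Col-0 x Cvi-0 embryos (1.53 to 432). The crosses thus moved in opposite directions between these stages, and the difference could not be tested.

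GA20OX1 (AT4G25420), the GA20OX gene known chiefly from stem elongation, had 2.5 reads (0.197 RPM) in the Col-0 x Cvi-0 pool of the 1-cell/2-cell stage and 0 reads in the other 5. GA2OX6, GA20OX1 and GA20OX2 were the 3 members with reads at the 1-cell/2-cell stage and 0 reads at the 8-cell stage. Of these, GA2OX6 and GA20OX2 have a match to the RY core in the promoter window, as 8.43% of all windows do, and both are shown for that reason. GA2OX6 and GA20OX1 were near or under the floor, and GA3OX4, which had reads at the 8-cell stage, has such a match too. Nothing is read from these matches.
GA2OX6 promoter, chr1:486550-486799, plus strand: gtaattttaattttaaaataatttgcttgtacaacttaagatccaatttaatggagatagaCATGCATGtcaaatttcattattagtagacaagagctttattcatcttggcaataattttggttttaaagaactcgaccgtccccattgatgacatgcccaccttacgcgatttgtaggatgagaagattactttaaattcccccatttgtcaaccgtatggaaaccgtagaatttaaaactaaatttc
GA20OX2 promoter, chr5:21056882-21057131, minus strand: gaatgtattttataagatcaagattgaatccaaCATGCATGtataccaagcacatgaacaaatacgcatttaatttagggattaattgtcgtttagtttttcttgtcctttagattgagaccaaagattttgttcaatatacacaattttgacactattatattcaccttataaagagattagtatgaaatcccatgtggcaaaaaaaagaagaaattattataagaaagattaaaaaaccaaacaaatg
In both windows the capitals are the palindrome CATGCATG, in which the matches on the 2 strands overlap and make 1 site, 189 bases before the start of GA2OX6 and 217 bases before that of GA20OX2. Beyond these, TGTCTC occurs in the windows of GA3OX1 and GA2OX8, TAACAAA in that of GA2OX8, and CATGCA in that of GA3OX4.

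Set against each other per kilobase of transcript, the inactivating oxidases outweighed the synthesis oxidases from the 8-cell stage on. Summed levels of the inactivating oxidases at the 1-cell/2-cell stage were 0 RPM per kb in Cvi-0 x Col-0 embryos and 0.213 in Col-0 x Cvi-0 embryos, where those of the synthesis oxidases were 1.92 and 1.15 RPM per kb in the same libraries. At the 8-cell stage the inactivating oxidases summed to 2.81 RPM per kb in Cvi-0 x Col-0 and 1.15 in Col-0 x Cvi-0 embryos, and the synthesis oxidases to 0.762 and 0 RPM per kb. At the 32-cell stage the inactivating oxidases summed to 14.4 RPM per kb in Cvi-0 x Col-0 and 31.8 in Col-0 x Cvi-0 embryos, and the synthesis oxidases to 1.68 and 5.40 RPM per kb. The order of both sums was therefore the same in the 2 libraries of each stage. GA2OX2 alone stood at 14.4 and 31.8 RPM per kb at the 32-cell stage and GA3OX2 at 1.07 and 4.72 RPM per kb, in Cvi-0 x Col-0 and then Col-0 x Cvi-0 embryos. These sums leave out the 3 genes not analysed here, and transcript levels are not enzyme activities. They also leave out other oxidase genes with reads. Among those, GA20OX4 had a stage mean of 0.452 RPM per kb at the 1-cell/2-cell stage. At the 32-cell stage GA3OX3 had 0.468 and the related oxygenase AT5G58660 had 1.31 RPM per kb. GAMT2, which inactivates gibberellins by methylation, is not in the sums either. Its stage means were 26.0, 38.8 and 20.8 RPM per kb in stage order. The synthesis sums of the 1-cell/2-cell stage rest on few reads. GA20OX genes held 33 and GA3OX genes 5 reads in Cvi-0 x Col-0 embryos, against 3.5 and 13.5 in Col-0 x Cvi-0 embryos.

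Marker levels of other tissues beside these values were as follows. Seed coat markers at the 32-cell stage summed to 92.3 RPM in Cvi-0 x Col-0 embryos and 26.0 RPM in Col-0 x Cvi-0 embryos, with 0 of 6 at 0 in both, while GA2OX2 and GA3OX2 were higher in Col-0 x Cvi-0 embryos. Seed coat markers were also higher in Cvi-0 x Col-0 embryos at the 8-cell stage, at 57.8 RPM against 38.3 RPM, with 1 of 6 at 0 in both. There GA2OX2 had the same order of crosses as these markers, at 5.67 RPM against 2.31 RPM. GA3OX1 was the higher in Cvi-0 x Col-0 embryos at every stage, on few reads. Suspensor markers summed to 181 and 111 RPM, then 133 and 133 RPM, then 77.4 and 39.6 RPM, the Cvi-0 x Col-0 library before the Col-0 x Cvi-0 library at each stage. Endosperm markers summed to 45.3 and 52.2 RPM, then 23.5 and 26.3 RPM, then 17.0 and 12.2 RPM in the same order. Of these, the sucrose transporter gene SUC5 held 40.9 and 44.8 RPM, then 16.4 and 18.2 RPM, then 8.47 and 2.15 RPM. The endosperm markers other than SUC5 summed to 4.47 and 7.36 RPM, then 7.05 and 8.09 RPM, then 8.50 and 10.02 RPM. Their sum, unlike that of the whole list, was thus higher at each later stage within each cross. Its members did not move alike. By stage mean ALE1 (0.0783, 2.46 and 3.53 RPM), FIS2, ZOU and MINI3 were highest at the 32-cell stage. FWA (1.57, 4.02 and 2.90 RPM) and MEA were highest at the 8-cell stage. AGL62 (2.09, 0.529 and 0.782 RPM), PHE1 and IKU2 were highest at the 1-cell/2-cell stage. TT10 was the seed coat marker at 0, and the endosperm gene MEA was at 0 in 5 of the 6 libraries. The part of these tissues in the levels of the oxidase genes was not tested.

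Alleles could be told apart in useful number only for GA2OX2, which had reads from both parents. It held 93 maternal and 95 paternal allele reads, a maternal share of 49.5% (interval 42.1 to 56.8), where that of the seed coat markers was 99.4% and that of the endosperm markers 56.8% (137 maternal and 104 paternal reads, 50.3 to 63.2). In Cvi-0 x Col-0 embryos 46 were maternal and 25 paternal, and in Col-0 x Cvi-0 embryos 47 were maternal and 70 paternal. The side with more reads was the Cvi-0 allele in both directions of the cross. Over all libraries 72 reads carried the Col-0 allele and 116 the Cvi-0 allele, so that Col-0 made up 38.3% (31.3 to 45.7), where all genes together had 53.5%.

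By library, the Col-0 allele of GA2OX2 had 2 and the Cvi-0 allele 6 reads in 8-cell Cvi-0 x Col-0 embryos, and 0 and 4 reads in 8-cell Col-0 x Cvi-0 embryos. At the 32-cell stage the Col-0 share was 36.5% in Cvi-0 x Col-0 embryos (23 of 63 reads, interval 24.7 to 49.6) and 41.6% in Col-0 x Cvi-0 embryos (47 of 113 reads, 32.4 to 51.2). Both 32-cell intervals ended below the share of all genes in the same library, 52.9% in Cvi-0 x Col-0 embryos and 53.5% in Col-0 x Cvi-0 embryos. Of the 188 reads, 187 fell on 1 variant, so the shares rest on a single position, and allele reads were between 9.52% and 14.3% of the gene's reads in a library.

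**Figure D2:**
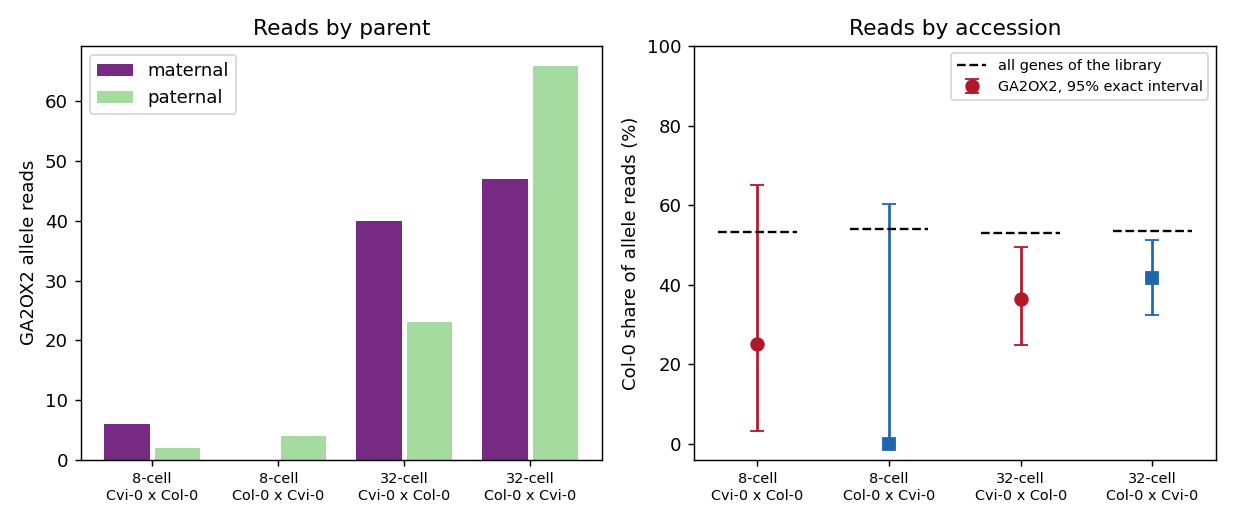
Left, GA2OX2 allele reads (y axis) from the maternal and the paternal genome in the 4 libraries with reads (x axis). Right, the Col-0 share of those reads in percent with exact 95% intervals (circles, Cvi-0 x Col-0; squares, Col-0 x Cvi-0) beside the share over all genes of the library (dashed lines, 52.9 to 54.0%). The parent with more reads changes with the direction of the cross at the 32-cell stage, and the Col-0 share lies below the dashed line in all 4 libraries.

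In the fit of alleles over 6988 genes (edgeR's quasi-likelihood test with library, parent and accession as terms), GA2OX2 was the 1 oxidase gene with enough allele reads. Its log2 ratio was -0.02 ± 0.50 (standard error) for maternal over paternal reads and -1.02 ± 0.58 for Col-0 over Cvi-0 reads. Neither was past an adjusted p of 0.05. Of all genes 0.129% were for parent and 20.5% for accession (13.7% with more Col-0 reads and 6.81% with fewer). Without the Col-0 x Cvi-0 pool of the 32-cell stage the log2 ratios of GA2OX2 were -1.57 for parent and -2.60 for accession. Only the 4 reads of the 8-cell stage, all Cvi-0, were then left from that cross, so these values separate parent from accession poorly. GA3OX1 had 0 Col-0 and 5 Cvi-0 allele reads, of which 4 came from Cvi-0 x Col-0 embryos and were maternal. GA3OX4 had 1 Col-0 read and GA20OX1 had 1 Cvi-0 read. GA3OX2, GA20OX2 and GA2OX6 had 0 allele reads, so their parent of origin was not detectable.

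The rest of the pathway was examined with 39 genes in 5 lists, of which 35 had values and 26 passed the filter of the stage fit. Those past the threshold in edgeR between stages were the responsive genes GASA4 and GASA1 and the synthesis gene KAO2. The lists were chosen with earlier results of these data known, so the p-values of their genes are given as a description. For the 8-cell over the 1-cell/2-cell stage 1 of the 26 rose and 0 fell, where 1.1% of all genes passed, 0.864% as higher and 0.235% as lower. At an unadjusted p under 0.05 there were 4 of the 26 (12.97% of all genes), and DESeq2 called 1 (4.63% of all genes). For the 32-cell over the 8-cell stage 0 of the 26 passed in edgeR, 7 had an unadjusted p under 0.05 (11.8% of all genes had), and DESeq2 called 2 (3.68% of all genes). Between the 32-cell and the 1-cell/2-cell stage 2 rose and 1 fell, where 7.78% of all genes passed, 4.18% as higher and 3.6% as lower. There 13 of the 26 had an unadjusted p under 0.05 (26.5% of all genes), and DESeq2 called 6 (17.2% of all genes). The median log2 ratio of the 26 was -0.12, 0.55 and 0.75 in these comparisons, beside 0.01, 0.01 and 0.00 over all genes.

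**Figure D3:**
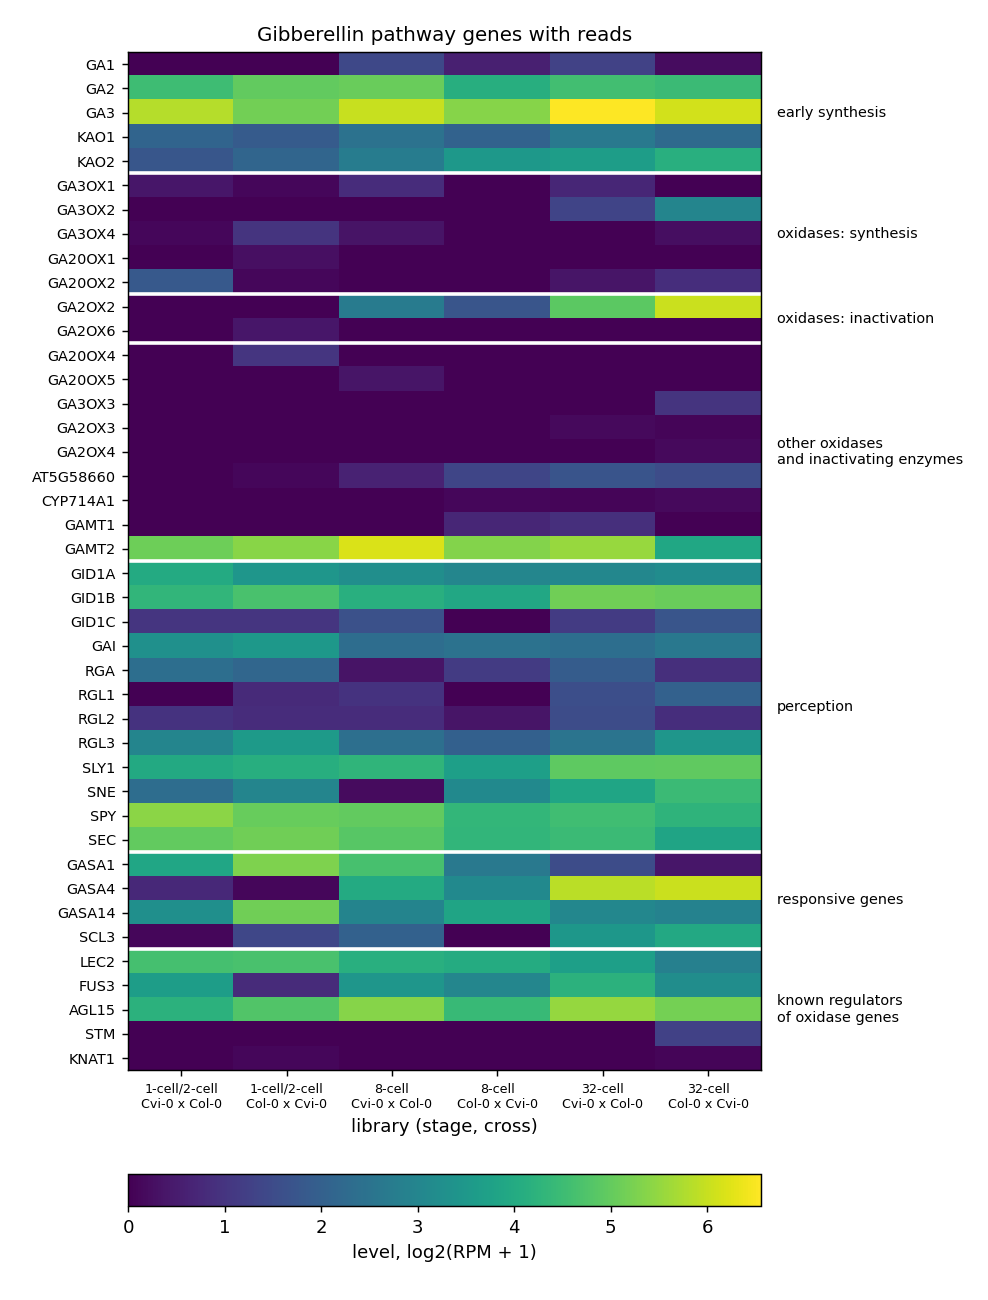
Level of each gibberellin pathway gene with values (rows, grouped by role) in the 6 libraries (columns), as log2(RPM + 1) in colour. GA2OX2 and GASA4 brighten with each later stage in both crosses, GASA1 is darkest at the 32-cell stage, and most other oxidase genes stay near 0 throughout.

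GASA4 (AT5G15230), a small cysteine-rich peptide gene induced by gibberellin, had 0.699 RPM in Cvi-0 x Col-0 and 0.0787 RPM in Col-0 x Cvi-0 embryos at the 1-cell/2-cell stage. It had 15.1 and 7.68 RPM at the 8-cell stage and 58.3 and 64.6 RPM at the 32-cell stage in the same order of crosses. Its stages did not overlap, as for GA2OX2. The log2 ratio was 4.98 ± 0.66 for the 8-cell over the 1-cell/2-cell stage (edgeR's quasi-likelihood test, Benjamini-Hochberg adjusted p = 0.0173) and 7.52 ± 0.70 for the 32-cell over the 1-cell/2-cell stage (adjusted p = 0.00254). Without the Cvi-0 x Col-0 pool of the 8-cell stage the first of these was 4.72 with an edgeR adjusted p of 0.0683.

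GASA1 (AT1G75750), a peptide gene of the same family, fell by the 32-cell stage. It had 13.7 RPM in Cvi-0 x Col-0 and 38.1 RPM in Col-0 x Cvi-0 embryos at the 1-cell/2-cell stage, 24.1 and 5.33 RPM at the 8-cell stage, and 1.86 and 0.307 RPM at the 32-cell stage. The 32-cell libraries were the lowest in both crosses, while the earlier stages overlapped. The log2 ratio of the 32-cell over the 1-cell/2-cell stage was -4.88 ± 0.99 (edgeR's quasi-likelihood test, adjusted p = 0.0285).

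Early synthesis genes, which make the substrate of the oxidases, were read in every library except for GA1. KAO2 (AT2G32440), an ent-kaurenoic acid oxidase, had 2.37 RPM in Cvi-0 x Col-0 and 3.38 RPM in Col-0 x Cvi-0 embryos at the 1-cell/2-cell stage, 5.77 and 10.3 RPM at the 8-cell stage, and 11.5 and 16.6 RPM at the 32-cell stage. Its log2 ratio was 2.43 ± 0.48 for the 32-cell over the 1-cell/2-cell stage (edgeR's quasi-likelihood test, adjusted p = 0.0270). That call was lost without the Col-0 x Cvi-0 pool of the 1-cell/2-cell stage (edgeR adjusted p = 0.0721), the Col-0 x Cvi-0 pool of the 32-cell stage (0.160) or the Cvi-0 x Col-0 pool of the 32-cell stage (0.0774).

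GA3, the ent-kaurene oxidase gene, had 55.8 RPM in Cvi-0 x Col-0 and 34.8 RPM in Col-0 x Cvi-0 embryos at the 1-cell/2-cell stage, 63.4 and 39.9 RPM at the 8-cell stage, and 93.1 and 68.1 RPM at the 32-cell stage. Its log2 ratio of 0.99 ± 0.29 between the 32-cell and 1-cell/2-cell stages was not past the threshold in edgeR (adjusted p = 0.0783) and was past it in DESeq2 (adjusted p = 0.0184). GA1, the gene of the first cyclase of the pathway, had 0 reads in both libraries of the 1-cell/2-cell stage. It had 1.69 RPM in Cvi-0 x Col-0 and 0.494 RPM in Col-0 x Cvi-0 embryos at the 8-cell stage, and 1.44 and 0.154 RPM at the 32-cell stage. Its reads thus began at the 8-cell stage, with 31 over both crosses there and 26.5 at the 32-cell stage. The value of 0.154 RPM lies under the floor of 3 reads in that library (0.184 RPM). Unlike GA2OX2, GA1 was not higher at the 32-cell than at the 8-cell stage, and its log2 ratios were not past the threshold.

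GA2, the ent-kaurene synthase gene, did not pass the threshold in any comparison of stages and was the 1 of 6 pathway genes in the fit of alleles that differed by accession. It held 243 Col-0 and 112 Cvi-0 allele reads, so that Col-0 made up 68.5% (interval 63.3 to 73.3), the opposite side from GA2OX2. Its log2 ratio of Col-0 over Cvi-0 reads was 1.29 ± 0.35 (edgeR's quasi-likelihood test, adjusted p = 0.0177), and without the Cvi-0 x Col-0 pool of the 8-cell stage the edgeR adjusted p was 0.0572. Its gene model overlaps AT1G79470, and whether the authors counted by strand is not given in the sources used here. By parent 0 of the 6 passed in edgeR, 0 had an unadjusted p under 0.05 (4.31% of all genes), and DESeq2 called 0 (0.315% of all genes).

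Of 12 other oxidases and inactivating enzymes 9 had values, and only GAMT2 and AT5G58660 passed the filter. GAMT2, which inactivates gibberellins by methylation in developing seeds, had 33.4 RPM in Cvi-0 x Col-0 and 41.2 RPM in Col-0 x Cvi-0 embryos at the 1-cell/2-cell stage, 71.7 and 39.6 RPM at the 8-cell stage, and 45.6 and 14.1 RPM at the 32-cell stage. It was therefore read in every library, including the 1-cell/2-cell libraries where GA2OX2 had 0 reads, and its log2 ratio between any pair of stages was not past the threshold. AT5G58660, annotated in RefSeq as an oxygenase of the same superfamily as the oxidases, had 0 RPM in Cvi-0 x Col-0 and 0.0787 RPM in Col-0 x Cvi-0 embryos at the 1-cell/2-cell stage, 0.540 and 1.57 RPM at the 8-cell stage, and 2.25 and 1.88 RPM at the 32-cell stage. Its stages did not overlap, and its log2 ratio of 5.81 ± 1.71 for the 32-cell over the 1-cell/2-cell stage was not past the threshold in edgeR (adjusted p = 0.0816) and was past it in DESeq2 (adjusted p = 0.0181). GA3OX3 had reads in the Col-0 x Cvi-0 pool of the 32-cell stage alone, at 0.983 RPM.

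All 12 perception genes passed the filter, and 0 of them passed the threshold in edgeR in any of the 3 comparisons of stages. At an unadjusted p under 0.05 there were 0 of them for the 8-cell over the 1-cell/2-cell stage, 3 for the 32-cell over the 8-cell stage and 4 for the 32-cell over the 1-cell/2-cell stage, where 12.97%, 11.8% and 26.5% of all genes had such a p. DESeq2 called 0 of the 12 in each, and 4.63%, 3.68% and 17.2% of all genes. GID1B, a gibberellin receptor gene, had 19.0 RPM in Cvi-0 x Col-0 and 24.5 RPM in Col-0 x Cvi-0 embryos at the 1-cell/2-cell stage and 34.3 and 32.1 RPM at the 32-cell stage. SLY1 had 14.8 and 16.4 RPM at the 1-cell/2-cell stage and 29.4 and 30.1 RPM at the 32-cell stage in the same order of crosses. At the 8-cell stage the mean of GID1B was 15.5 RPM, below its means at the other stages (21.7 and 33.2 RPM). SPY and SEC, the rest of the 4 named by unadjusted p above, were lower at the 32-cell than at the 1-cell/2-cell stage. Their stage means went from 36.8 to 20.3 RPM for SPY and from 32.3 to 17.0 RPM for SEC. The DELLA genes GAI, RGA, RGL1, RGL2 and RGL3 lay between 0 and 10.9 RPM in every library.

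Among known regulators of oxidase genes, AGL15 and the RY-binding factors FUS3 and LEC2 were read in every library, and 0 of the 3 passed the threshold in edgeR between stages. At an unadjusted p under 0.05 there were 0, 1 and 2 of them for the 8-cell over the 1-cell/2-cell, the 32-cell over the 8-cell and the 32-cell over the 1-cell/2-cell stage, and DESeq2 called 0, 0 and 1 (LEC2, lower), beside the same shares of all genes as for the perception genes. STM, a meristem homeobox gene whose product is known to activate GA2OX2 in the shoot apex, had reads in the Col-0 x Cvi-0 pool of the 32-cell stage alone, at 1.41 RPM. Its part in the level of GA2OX2 was not tested.

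Between the directions of the cross 0 of the 26 pathway genes passed in edgeR, 1 had an unadjusted p under 0.05 (5.68% of all genes), and DESeq2 called 0 (0.280% of all genes), with a median log2 ratio of 0.07 beside 0.04 over all genes.

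The genes whose levels over the 6 libraries were most like those of GA2OX2, by Pearson's r on log2(RPM + 1) among 2270 genes of at least 5 RPM on average and with a maximum at least 4 times the minimum plus 1, were AT1G53860 and HB32 (r = 0.998 each), AT5G22810, HA2 and NPY4 (r = 0.996 each). HB32 encodes a zinc finger homeodomain protein, HA2 a plasma membrane proton pump, and NPY4 a member of a family named for pin-like auxin mutants. NPY4 had 0 RPM in both 1-cell/2-cell libraries, 4.05 RPM in Cvi-0 x Col-0 and 1.32 RPM in Col-0 x Cvi-0 embryos at the 8-cell stage, and 17.0 and 22.6 RPM at the 32-cell stage. AT5G22810 reached 138 RPM in Cvi-0 x Col-0 and 380 RPM in Col-0 x Cvi-0 embryos at the 32-cell stage, and there was higher in the Col-0 x Cvi-0 library, like GA2OX2. GASA4 came at rank 53, with r = 0.973, and had the same order of crosses at both stages.

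For GA3OX2, among 2271 genes, they were AT3G24068 (r = 0.989), the abaxial YABBY gene YAB5 (0.988), GDC1 (0.984), AT3G14067 (0.977) and HP6, a pseudo-phosphotransfer protein that inhibits cytokinin signalling (0.971). HP6 had 38.6 RPM in Cvi-0 x Col-0 and 154 RPM in Col-0 x Cvi-0 embryos at the 32-cell stage, and under 0.5 RPM in the other 4 libraries. GA2OX2 and GA3OX2 had r = 0.874 with each other. Each r rests on 6 libraries that share their stages, crosses and depth, and is a description.

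**Figure D4:**
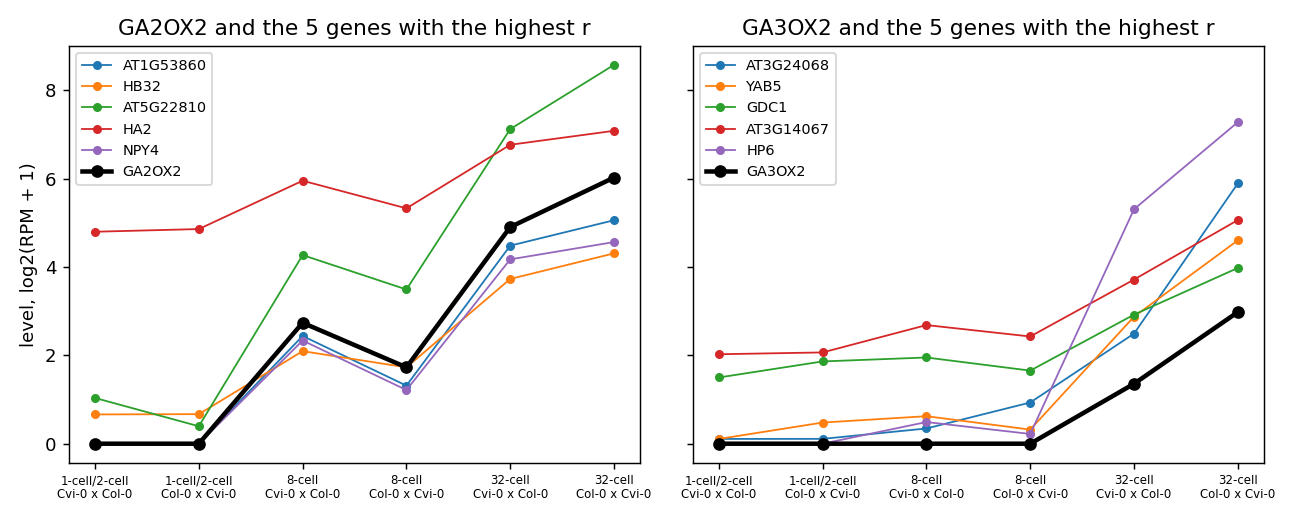
Level in log2(RPM + 1) (y axis) in the 6 libraries (x axis, by stage and cross) of GA2OX2 (left, black) and GA3OX2 (right, black) and of the 5 genes with the highest Pearson's r to each (coloured). The genes beside GA2OX2 climb at both the 8-cell and the 32-cell stage, and those beside GA3OX2 are highest in the Col-0 x Cvi-0 pool of the 32-cell stage.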

How the data were processed

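Poly(A) RNA of 6 embryo libraries was analysed from tables covering the whole series. Per the labels' protocols, RNA was amplified linearly and libraries were strand-specific, and the embryos were washed. Per the series' design text, mapping used Bowtie, version not stated, against TAIR10 and a copy carrying Cvi-0 variants, and perfect, unique matches were kept. Perfect matching can lose reads of an accession with unlisted variants. The authors deposited reads per gene, in steps of 0.5 (68.3% of entries above 0 were whole), treated here as estimated counts and rounded for the fits. The authors deposited allele reads as counts per gene, with lists of reads per variant. The deposited RPM are scaled to mapped reads. A further 30 columns of per-library values were not used.

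Genes were matched by locus identifier to RefSeq's TAIR10.1, which gave positions and promoter sequence; not every promoter window is reported here. Gene reads were fitted in edgeR 4.0.16 (R 4.3.3, limma 3.58.1; TMM, filterByExpr by stage, 17478 genes, 2 residual degrees of freedom), and allele reads likewise where they averaged 10 or more per library (6988 genes, 4 residual degrees of freedom, both columns of a library on 1 offset). The biological coefficient of variation was 42.9% for gene reads and 30.9% for allele reads. DESeq2 1.42.0 was an alternative. Adjustment was by Benjamini-Hochberg over all genes fitted, at 0.05. Without replicates, p-values measure the spread left in these fits, with reciprocal crosses or stages as repeats, which may be technical. Folds against 0 reads set 3 reads per library, scaled by mapped reads, in place of 0. Scripts were tested on simulated data.

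The oxidase genes, the pathway lists and the markers were chosen with earlier results of these data known. Named genes are all 10 oxidases, listed genes past the threshold or defining a step, and the 5 genes most like GA2OX2 and the synthesis oxidase of highest mean RPM.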

Additional observations from a re-analysis of the deposited data

Results flagged for a closer look

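GA20OX2 moved in opposite directions in the reciprocal crosses between the 32-cell and the 1-cell/2-cell stage, at 0.117 times in Cvi-0 x Col-0 embryos (5 reads against 33) and 10.2 times in Col-0 x Cvi-0 embryos (13 reads against 1). The 33 reads of the Cvi-0 x Col-0 pool of the 1-cell/2-cell stage decide the first of these values and the single read of its partner the other. GA2OX2 was 2.45 times as high in Cvi-0 x Col-0 as in Col-0 x Cvi-0 embryos at the 8-cell stage and 0.452 times at the 32-cell stage. In both cases the sign of a contrast differed between groups while its counting intervals lay on either side of 1. Neither difference was tested, since each group was 1 library. GASA4 and the 5 genes most like GA2OX2 had the same order of crosses as GA2OX2 at the 8-cell and 32-cell stages. Those 5 genes were picked by likeness to GA2OX2 over the same 6 libraries, so their order is no separate evidence. The share of all genes with that order was not counted.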

How the results depend on the processing

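Counts of pathway genes past the threshold, out of 26, were compared across alternatives. For the 32-cell over the 8-cell stage the count was 0, and it was 2 in DESeq2 and 2 with no filter on low reads (GASA4 higher and GASA1 lower in both), and 0 to 3 with 1 library left out. For the 32-cell over the 1-cell/2-cell stage it was 3, against 6 in DESeq2 (also AT5G58660 and GA3 higher and LEC2 lower) and 2 to 5 with 1 library left out. For the 8-cell over the 1-cell/2-cell stage it was 1, and 0 to 2 with 1 library left out. For Col-0 over Cvi-0 alleles it was 1 of 6, and 0 to 1 with 1 library left out. Leaving out the Cvi-0 x Col-0 pool of the 8-cell stage gave the 0 for the 8-cell over the 1-cell/2-cell stage, the 0 for alleles and the 5 for the 32-cell over the 1-cell/2-cell stage. Without the Cvi-0 x Col-0 pool of the 1-cell/2-cell stage the first of these was 2. For the 32-cell over the 8-cell stage the count was 2 without either 1-cell/2-cell pool, 1 without the Col-0 x Cvi-0 pool of the 32-cell stage and 3 without its partner. Counts for the cross and for parent of origin were 0 in the alternatives run. DESeq2's size factors and leaving out the cross term kept every one of these counts for stages. Of 49 alternatives of single pathway genes 44 kept the call, and the losses are given beside GASA4, KAO2 and GA2. A stage left with 1 library was assumed to vary like the others. GA2OX2's log2 ratio between crosses was -0.29, and -1.38 without either 8-cell library, 0.99 without the Col-0 x Cvi-0 pool of the 32-cell stage and 0.98 without the Cvi-0 x Col-0 pool of the 32-cell stage. A stage left with 1 library adds nothing to the cross term, so each of these values rests on the stages that kept both crosses. At the 1-cell/2-cell stage GA2OX2 had no reads. With levels scaled to gene reads, the 32-cell means of GA2OX2 and GA3OX2 moved by less than their SD over crosses. They went from 46.5 to 51.8 (SD 24.8) for GA2OX2 and from 4.22 to 4.70 (SD 3.76) for GA3OX2. This did not hold for every gene, as the 32-cell mean of SLY1 went from 29.7 to 33.2 (SD 0.488). The Col-0 share of GA2OX2 summed from variant lists stayed at 38.3%. No paired analysis was possible because the labels give no replicate numbers, beyond the cross term of the stage fit and the library term of the allele fit. Depth limits 4 of the 7 oxidase genes to under 50 reads in all.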
